A study of Mus musculus with 12 samples.

Results

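Fork direction and read distribution along the genome were compared between naive mouse embryonic stem cells (ESCs) that lack both KMT2C and KMT2D and naive ESCs that lack KMT2C alone. The comparison rests on 4 of the 12 samples of the series, with 2 biological replicates of the control KO and 2 of the double KO. The deposited tracks sum the replicates, so that 2 tracks were compared. Every autosome was divided into fixed windows, and 47139 of 49264 windows of 50 kb, 4758 of 4935 windows of 500 kb and 495 of 503 windows of 5 Mb had enough reads in all 6 tracks of the series. All 19 autosomes were used as well.

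Both lines carried a KMT2C knockout (KMT2C KO), and the KMT2C/D double knockout (KMT2C/D dKO) came from ESCs with a conditional KMT2D allele (KMT2C KO/KMT2D cKO) that express CreER, in which KMT2D is lost after addition of 4-hydroxytamoxifen. According to the methods these cells have a mixed strain background and their sex was not determined. Naive cells were kept in medium with LIF and 2i, the pair of inhibitors PD0325901 and CHIR99021. The control was therefore not wild type, and by its labels the comparison concerns the loss of KMT2D on top of the loss of KMT2C. The methods do not say whether the control received 4-hydroxytamoxifen. Loss of KMT2D cannot be told apart here from drug exposure or derivation of the line. Epiblast-like cells (EpiLCs), made from the same lines by withdrawal of LIF and 2i, gave separate control and KMT2C/D dKO tracks, which are used below as a second look at the same contrast.

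KMT2C and KMT2D are histone methyltransferases that place H3K4me1, the mark of enhancers and of their surroundings. OK-seq sequences Okazaki fragments, the short pieces of lagging strand that trail each replication fork, after labelling with the thymidine analog EdU. A fork that moves rightward leaves fragments on the Crick strand and a fork that moves leftward leaves them on the Watson strand. The Crick share, C/(W+C), of a stretch of genome is therefore read as the share of rightward forks there. It also follows base composition, as given below, so the shares of forks in what follows are shares of reads by strand. Forks tend to start near the promoters of active genes and to move away from them, and this gives genes an excess of forks that travel in the direction of transcription.

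The naive control track held 4409068 reads and the naive KMT2C/D dKO track 3937871 reads. On average this gave 89.2 and 79.6 reads per 50 kb window, 892 and 796 reads per 500 kb window, and 8920 and 7962 reads per 5 Mb window. The EpiLC tracks were deeper, with 11407678 reads in the control and 12962445 in KMT2C/D dKO. Over all autosomes 49.9% of the reads were Crick reads in both naive tracks. Because the replicates cannot be separated, no difference can be set against the spread between cultures, no p-value is given, and every 95% interval compares the 2 pooled libraries and covers counting error only. The reads carried no molecular identifiers and are not independent molecules. In each of the 6 tracks the Crick share of a 1 kb bin rose with its content of T minus A on the reference strand, with a slope of 1.76 in the naive control and 1.70 in naive KMT2C/D dKO, and 1.201 and 1.37 in the EpiLC tracks. The main results that move when this part is removed are given both ways.

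The same regions were replicated by rightward and by leftward forks in both lines. The Crick share of 500 kb windows ran from 24.2% to 73.8% in the naive control and from 24.4% to 77.9% in KMT2C/D dKO, with a correlation of 0.93 across the 4758 windows. Across 50 kb windows the correlation was 0.81 and across 5 Mb windows 0.91. With counting error taken off these values were 0.95 at 50 kb, 0.97 at 500 kb and 0.98 at 5 Mb. The windows share the library and its base preference, so these correlations are descriptions.

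Differences between the tracks nevertheless exceeded counting error. The mean squared difference of the Crick share was 1.29 times the counting variance at 50 kb, 1.87 times at 500 kb and 1.37 times at 5 Mb. Between odd and even 1 kb bins of the same track the corresponding values at 500 kb were 1.06 in the control and 1.06 in KMT2C/D dKO. The part of the spread beyond counting had an SD of 4.17 percentage points at 50 kb, 2.32 at 500 kb and 0.496 at 5 Mb. At 500 kb, 15.1% of the windows had an interval of the difference that left out 0, with 7.29% above and 7.82% below.

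**Figure D1:**
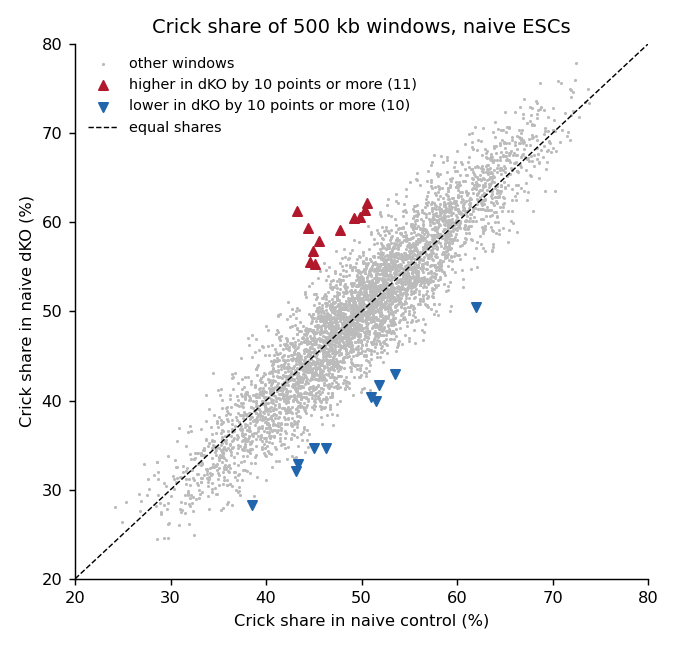
Crick share (%) of each 500 kb autosomal window in naive KMT2C/D dKO against the naive control, 1 point per window. The points follow the line of equal shares, and the 11 windows higher and 10 windows lower by at least 10 percentage points with an interval that leaves out 0 are drawn as triangles.

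The most general difference was one of contrast: windows with a high Crick share were higher, and windows with a low one lower, in KMT2C/D dKO. The lines are compared through their pooled libraries, so a difference in contrast between libraries cannot be told apart from one between lines. When 50 kb windows were grouped by the Crick share of the EpiLC control, a library that is not part of the naive comparison, the naive difference ran through all 8 groups in order. In the 3682 windows under 35% Crick in the EpiLC control, the naive Crick share was 30.2% in the control and 29.2% in KMT2C/D dKO, a difference of -0.998 percentage points (95% interval -1.22 to -0.778). In the 3728 windows of 65% and over it was 69.8% and 70.8%, a difference of 1.05 percentage points (0.829 to 1.27). The groups from 45% to 50% and from 50% to 55% differed by -0.206 (-0.375 to -0.0360) and 0.207 (0.0419 to 0.372) percentage points. All 8 intervals left out 0, and the sign changed once, at 50%. Between all 15254 windows of at least 55% and all 15360 windows of at most 45%, the Crick share differed by 25.1 percentage points in the control and 26.7 in KMT2C/D dKO, so that the contrast was larger by 1.53 percentage points (1.36 to 1.69). When deviations in KMT2C/D dKO were divided by its amplitude at 50 kb relative to the control, the contrast was larger by 0.2001 (0.0401 to 0.360).

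The size of these swings can be given as an amplitude, the SD of the Crick share over windows after the binomial variance is removed. At 500 kb the amplitude was 8.02 percentage points in the naive control and 8.99 in KMT2C/D dKO, a ratio of 1.12 (1.11 to 1.13). The ratio grew with the size of the window up to 2 Mb. It was 1.03 (1.03 to 1.04) at 10 kb, 1.05 (1.05 to 1.06) at 50 kb, 1.15 (1.13 to 1.16) at 1 Mb and 1.17 (1.15 to 1.197) at 2 Mb, and 1.12 (1.07 to 1.16) at 5 Mb. After removal of the T minus A part, the amplitude at 500 kb was 5.60 in the control and 6.65 in KMT2C/D dKO and the ratio rose to 1.19 (1.17 to 1.202), while at 2 Mb it was 1.29 (1.252 to 1.33).

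All 19 autosomes had a higher amplitude in naive KMT2C/D dKO. Within each state the autosomes were read from the same pooled libraries, so they are not independent replicates. Counts of autosomes therefore describe these libraries, and a difference between lines was not tested by them. The ratio at 500 kb lay between 1.09 (1.06 to 1.13) on chromosome 3 and 1.17 (1.12 to 1.22) on chromosome 16, with a median of 1.12, and all 19 intervals lay above 1. Neighbouring autosomes in this order did not differ beyond their intervals. In EpiLCs, where neither library is shared with the naive comparison, the ratio was also above 1 on all 19 autosomes, from 1.08 on chromosome 9 to 1.16 on chromosome 15, and 1.13 (1.120 to 1.13) over all windows of 500 kb. After removal of the T minus A part the EpiLC ratio fell to 1.098 (1.089 to 1.107), whereas the naive one rose. The amplitude itself was lower in EpiLCs, at 6.43 percentage points in the control and 7.25 in KMT2C/D dKO.

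**Figure D2:**
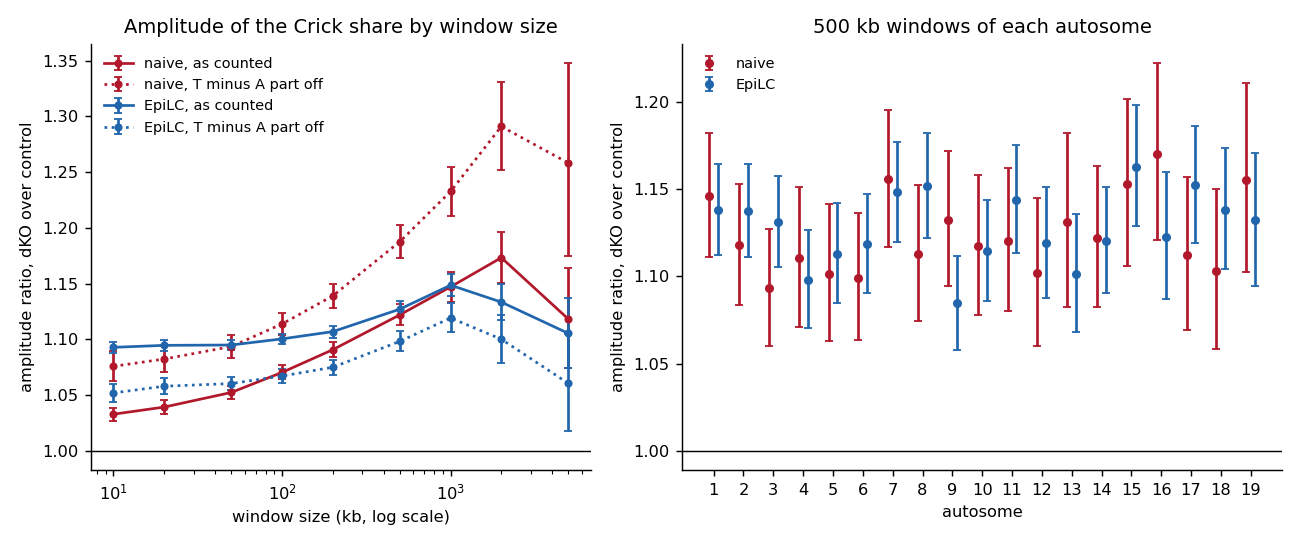
Left, ratio of the amplitude of the Crick share in dKO over control by window size (kb, log axis) in naive cells and EpiLCs, as counted and after removal of the T minus A part; right, the same ratio for the 500 kb windows of each autosome. Bars are 95% counting intervals; every point lies above 1, and the naive ratio climbs from 1.03 at 10 kb to 1.17 at 2 Mb as counted.

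The wider swings were present in windows with and without a TSS. In the 1160 windows of 500 kb without a protein-coding transcription start site (TSS), the amplitude was 7.44 percentage points in the control and 8.34 in KMT2C/D dKO, a ratio of 1.1215 (1.1001 to 1.1434). In the 629 windows with 10 or more TSSs it was 6.83 and 7.79, a ratio of 1.14 (1.11 to 1.17). Windows with 1 to 3 and with 4 to 9 TSSs had ratios of 1.134 (1.120 to 1.148) and 1.096 (1.079 to 1.114). When windows were ordered by GC content instead, the most AT-rich group of 952 windows stood lowest, with amplitudes of 5.62 and 5.90 percentage points and a ratio of 1.05 (1.016 to 1.08). The other 4 groups had ratios from 1.11 to 1.15.

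Within genes the difference ran the other way. Over the bodies of all 20807 autosomal protein-coding genes, 55.53% of the forks moved in the direction of transcription in the naive control and 54.96% in KMT2C/D dKO, lower by a difference of -0.569 percentage points (-0.667 to -0.471) although the overall swings were wider. This share was lower in all classes of gene length. Genes under 20 kb had 53.4% and 52.9%, a difference of -0.440 (-0.737 to -0.142). Genes of 20 to 100 kb had the highest share of the classes, 56.9% in the control and 56.3% in KMT2C/D dKO, a difference of -0.655 (-0.822 to -0.488). Genes of 100 to 300 kb differed by -0.471 (-0.654 to -0.287) and the 541 genes of 300 kb and over by -0.575 (-0.767 to -0.383).

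By autosome, 17 of 19 had a lower share along transcription in naive KMT2C/D dKO, and for 13 of these the interval lay below 0. Here too the autosomes share the pooled libraries and are not independent replicates. The differences ran from -0.953 percentage points on chromosome 16 to 0.133 on chromosome 18, with a median of -0.635. Among the 16214 genes that overlap no other protein-coding gene the difference was -0.596 (-0.707 to -0.485). Removal of the T minus A part brought the share over all genes down to 51.0% in the control and 50.6% in KMT2C/D dKO, and the difference to -0.375 (-0.474 to -0.276).

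The lower share was seen in 3 of 4 groups of genes by the CpG content of their promoters. CG dinucleotides were counted in the 250 bases before the start of the 15704 genes with a RefSeq promoter entry, where CpG-rich promoters are typical of housekeeping and developmental genes. In the 4303 genes with 0 to 3 CG dinucleotides, 53.6% of the forks moved along transcription in the control and 53.5% in KMT2C/D dKO, and the interval of the difference, -0.412 to 0.183, held 0. In the 3631 genes with 12 to 19 the shares were 56.1% and 55.2%, a difference of -0.845 (-1.07 to -0.621). In the 3902 genes with 20 or more they were 57.1% and 56.4%, a difference of -0.734 (-0.924 to -0.545). The 3868 genes with 4 to 11 lay between, at -0.530 (-0.754 to -0.306). The intervals of both upper groups lay wholly below that of the lowest group. After removal of the T minus A part, the lowest group differed by -0.0283 (-0.326 to 0.270), the group of 12 to 19 by -0.596 (-0.822 to -0.371) and the group of 20 or more by -0.479 (-0.670 to -0.287), the last of which overlapped the lowest.

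EpiLCs did not show this loss. There the share along transcription was 53.5% in the control and 53.9% in KMT2C/D dKO, higher by 0.385 percentage points (0.327 to 0.442). It was higher on all 19 autosomes, which come from the same pooled libraries and are not independent replicates. After removal of the T minus A part, the EpiLC difference was -0.0275 (-0.0851 to 0.0301), so over all genes the EpiLC increase was seen only in the reads as counted, while in the genes with 0 to 3 CG dinucleotides it was 0.227 (0.0529 to 0.401) after this removal. The naive interval after removal of this part, given above, lay below the EpiLC interval. Whether the states differ beyond the spread between cultures was not tested.

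**Figure D3:**
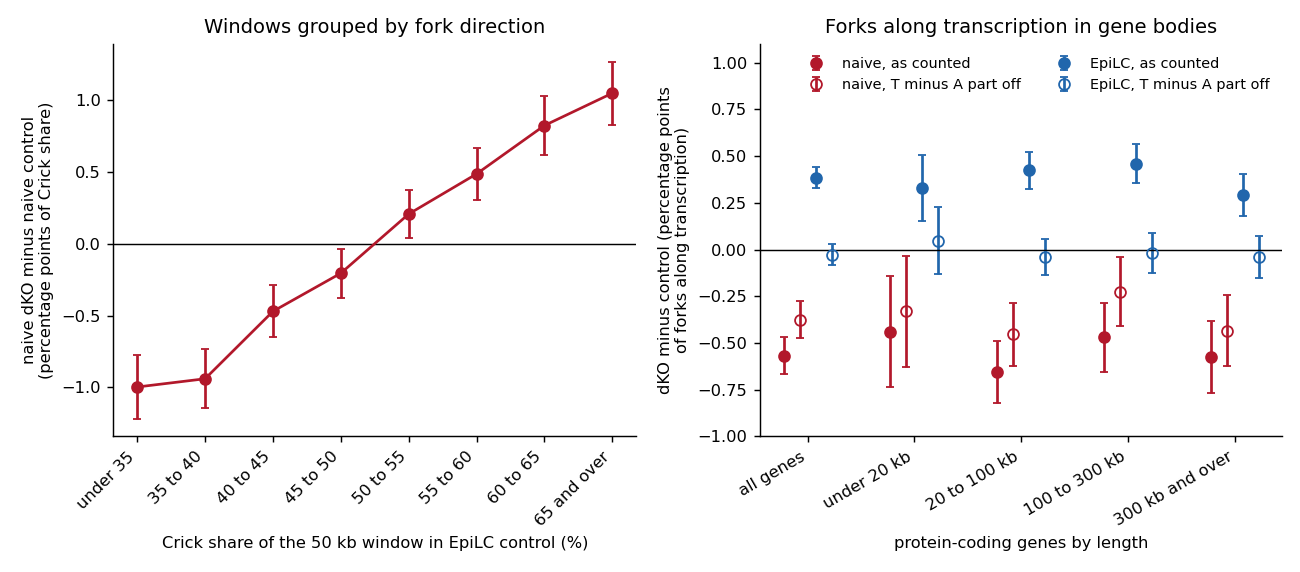
Left, naive dKO minus naive control (percentage points of Crick share) in 50 kb windows grouped by the Crick share of the EpiLC control; right, dKO minus control in the share of forks that move along transcription in gene bodies, by gene length, for naive cells and EpiLCs, as counted (filled) and after removal of the T minus A part (open). Bars are 95% counting intervals; the left panel climbs from -0.998 to 1.05, and on the right all naive points lie below 0.

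The share was also read by distance from the TSS, in steps that run past the ends of genes. In the first 5 kb downstream of the 20807 TSSs, 55.86% of the forks moved along transcription in the naive control and 55.03% in KMT2C/D dKO. Over the 8 steps of 5 kb in the first 40 kb downstream, KMT2C/D dKO was lower in 7 (in 5 after removal of the T minus A part), with an interval below 0 in 3. From 40 to 200 kb downstream it was higher in all 32 steps, with an interval above 0 in 25 of them and a median difference of 0.440 percentage points. Upstream, KMT2C/D dKO was lower in 39 of 40 steps, with a median of -0.398. The boundary at 40 kb was set after the profile was seen. These steps pool genes and what lies beyond them, and they do not place the lower share within genes, since the bodies of genes of 100 kb and over were lower as well.

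The sign of the strand bias, the Crick share to the right of TSSs minus that to their left, depended on the distance over which it was read. With 10 kb on each side and reads summed over all TSSs it was 6.37 percentage points in the control and 6.01 in KMT2C/D dKO, a difference of -0.359 (-0.664 to -0.0538). With 25 kb it was 6.84 and 6.64, a difference of -0.1999 (-0.394 to -0.00582), and with 50 kb 6.78 and 6.82. The difference at 25 kb was -0.0577 (-0.252 to 0.137) after removal of the T minus A part and -0.107 (-0.506 to 0.292) over TSSs with no other within 50 kb, so that its interval then held 0. After division by the amplitude it was -0.53 (-0.719 to -0.341). With 100 kb on each side KMT2C/D dKO was higher by 0.409 percentage points (0.311 to 0.507). In EpiLCs KMT2C/D dKO was higher at every one of these distances, from 0.352 (0.237 to 0.466) at 25 kb to 0.594 (0.536 to 0.651) at 100 kb. These EpiLC values are given as counted only. Over the first 40 kb downstream, the median EpiLC difference per step was 0.386 as counted and 0.141 after removal of the T minus A part.

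**Figure D4:**
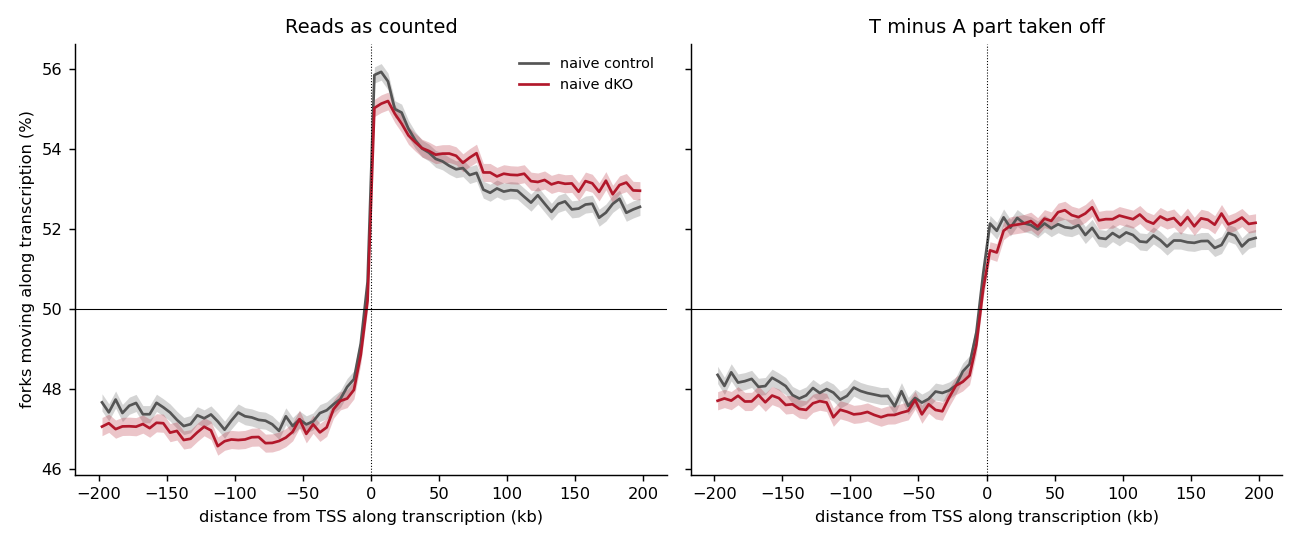
Share of forks that move along transcription (%) in steps of 5 kb by distance from the TSS (kb) over 20807 protein-coding genes, in the naive control and naive dKO, as counted (left) and after removal of the T minus A part (right). Shading is the 95% counting interval; dKO lies under the control upstream and just behind the TSS (55.86% and 55.03% in the first 5 kb as counted) and above it beyond 40 kb.

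Groups of genes were examined through the strand bias at their TSSs, 25 kb on each side. Among 19921 genes with enough reads (10 or more per side in each of the 4 naive and EpiLC tracks), 3.35% had an interval of the difference above 0 and 3.42% below 0, and the median gene differed by -0.236 percentage points. A list of few genes at this depth gives wide intervals, neighbouring genes share reads, and the lists are described by counts and summed reads with nothing called particular to them.

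The 38 ribosomal protein genes, all highly transcribed housekeeping genes, had a summed strand bias of 13.4 percentage points in the naive control and 6.44 in KMT2C/D dKO, a difference of -7.01 (-11.1 to -2.90). Of these 38 genes 23 were lower and 15 higher, the median was -6.29, and the interval lay below 0 for 4 and above 0 for none. Among them were Rpl23, Rps6 and Rps24, named because of their values, with differences of -24.2 (-44.9 to -2.48), -32.5 (-57.97 to -5.13) and -28.6 (-52.3 to -3.09). Rpl19, a protein of the large ribosomal subunit, had a strand bias of 25.4 in the control and 7.58 in KMT2C/D dKO, with an interval of the difference of -38.7 to 3.70. In EpiLCs the summed difference of the list was -2.34 (-4.83 to 0.152) and that of Rpl19 -16.9 (-31.1 to -2.31).

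The 13 autosomal genes of the list of long fragile site genes are giant genes prone to breaks under replication stress. Their summed difference at the TSSs lay on the other side of 0. Summed over the list, the control had a strand bias of 1.86 percentage points against 12.1 in KMT2C/D dKO, a difference of 10.2 (1.84 to 18.5), with 8 genes higher, 5 lower and a median of 11.7. The interval lay above 0 for 2 genes, Ctnna3 and Magi2, the latter named because of its value. Ctnna3 is the gene of alpha-T-catenin, where the Crick share went from 82.1% on the left and 64.3% on the right in the control to 68.3% and 90.0% in KMT2C/D dKO, a difference in strand bias of 39.5 (16.6 to 59.96). Immp2l, which encodes a mitochondrial inner membrane peptidase, had a strand bias of 11.6 in the control and 9.33 in KMT2C/D dKO, with an interval of the difference of -28.9 to 24.2. In EpiLCs the summed difference of the list was -0.0754 (-4.98 to 4.83) and that of Ctnna3 1.71 (-14.0 to 17.2). Along the bodies of these long genes 53.6% of the forks moved along transcription in the naive control and 53.2% in KMT2C/D dKO, with an interval of the difference of -1.18 to 0.431, on 30702 and 28108 reads.

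The promoter sequences of members of these lists are shown because genes were grouped above by the CpG content of the promoter. Each is the 250 bases before the start in RefSeq (GRCm38.p6), 5′ to 3′ on the strand of the gene, with every CG dinucleotide in capitals.
Rpl19 (chr11:98026460-98026709, plus strand): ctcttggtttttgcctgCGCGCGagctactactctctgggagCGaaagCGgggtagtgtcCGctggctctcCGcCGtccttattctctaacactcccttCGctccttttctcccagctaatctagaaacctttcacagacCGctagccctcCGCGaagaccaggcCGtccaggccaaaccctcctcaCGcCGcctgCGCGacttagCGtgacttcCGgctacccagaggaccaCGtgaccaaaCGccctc
Ctnna3 (chr10:63429848-63430097, plus strand): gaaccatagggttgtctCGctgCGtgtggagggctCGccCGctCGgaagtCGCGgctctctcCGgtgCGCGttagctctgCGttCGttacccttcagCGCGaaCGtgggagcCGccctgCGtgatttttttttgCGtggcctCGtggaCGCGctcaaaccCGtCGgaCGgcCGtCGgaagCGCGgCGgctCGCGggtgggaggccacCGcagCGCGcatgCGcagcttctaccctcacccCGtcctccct
Immp2l (chr12:41023840-41024089, plus strand): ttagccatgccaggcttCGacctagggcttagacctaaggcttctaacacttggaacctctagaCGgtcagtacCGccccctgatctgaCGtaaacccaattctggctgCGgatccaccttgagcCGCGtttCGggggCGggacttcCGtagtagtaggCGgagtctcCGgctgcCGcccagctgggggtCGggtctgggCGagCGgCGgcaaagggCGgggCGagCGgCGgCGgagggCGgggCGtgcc
The letters CG, which read the same on both strands, occurred 21 times in the Rpl19 promoter, 36 times in that of Ctnna3 and 24 times in that of Immp2l. Of all 32851 RefSeq promoters, 16.3%, 2.58% and 11.98% held at least as many, the median was 6, and 7.87% held none. All 3 promoters were thus above the median in CG dinucleotides, whereas the strand bias differed by -17.8, 39.5 and -2.31 percentage points, and the intervals of Rpl19 and Immp2l held 0.

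For the lists of pluripotency genes and of the H3K4 machinery, the interval of the summed difference in strand bias held 0. The 14 naive pluripotency factors, which hold the naive state, had a summed strand bias of 14.5 percentage points in the control and 10.4 in KMT2C/D dKO, and the interval of the difference, -10.9 to 2.79, held 0, with 10 genes lower and 4 higher. Tbx3, a T-box factor of naive cells, had 36.7 and 22.8, with an interval of -35.5 to 7.95, and Fgf4, the growth factor that drives cells out of the naive state, had -1.32 and 16.2, with an interval of -5.74 to 39.7. Of the 7 shared pluripotency factors 4 were lower and 3 higher, and Pou5f1, the POU factor Oct4, had a strand bias of 33.4 and 26.9 with an interval of the difference of -27.3 to 14.6. Next to Sox2, its partner factor, the strand bias was 5.39 and 3.84, while the Crick share itself went from 46.2% and 51.5% on the left and right in the control to 28.8% and 32.7% in KMT2C/D dKO. The 12 formative factors, which are switched on when cells leave the naive state, divided into 6 higher and 6 lower, with a median of 0.419 against a summed difference of -5.33 (-12.8 to 2.12), so the median and the sum differed in sign. Zic2 and Pou3f1, transcription factors of the formative epiblast, had differences of 6.09 and -3.29 with intervals of -15.9 to 27.4 and -23.0 to 17.2, and in EpiLCs of 16.2 (2.01 to 30.2) and 22.2 (8.06 to 36.0). In the bodies of the 12 formative factors the share along transcription was 63.0% in the control and 56.9% in KMT2C/D dKO. The difference was -6.08 (-10.7 to -1.39) on 918 and 770 reads. Lef1 and Dnmt3a held 281 and 279 of the control reads, so this summed share rests largely on these genes. In the other 8 lists the interval of this gene-body difference held 0, with values from -5.46 for the shared pluripotency factors to 2.75 for Okazaki fragment synthesis, and 4 of them were positive. Some single genes, named because of their values, had an interval of the strand bias difference that left out 0. In the pluripotency and formative lists they were Dppa3 (-30.5), Sall4 (-30.2), Dnmt3a (-30.7) and Etv4 (-35.2). In EpiLCs Dppa3 (-11.5), Sall4 (-15.0) and Etv4 (-12.9) were also lower, and Dnmt3a was higher (7.37). In the lists below such genes were Kdm5b (-20.7, -41.1 to -0.0359), Smc3 (-29.7), Rbbp5 (29.4) and Fen1 (25.2).

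Among the 18 members of the H3K4 methylation machinery 11 were lower and 7 higher, and the summed difference of -2.32 had an interval of -8.25 to 3.60. Men1, the menin subunit of other H3K4 methyltransferases, differed by 12.7 (-8.95 to 33.9) and Setd1a, a methyltransferase of promoters, by -6.21 (-28.3 to 16.1). In EpiLCs Men1 differed by -21.5 (-35.3 to -7.12) and Setd1a by -17.7 (-31.7 to -3.37). The 29 genes of origin licensing and firing had 16 lower, 13 higher and a summed difference of -1.82 (-6.81 to 3.17), and none had an interval on either side of 0 alone. Recql4, a helicase that acts at origin firing, differed by -21.1 (-42.2 to 1.26) and Gins2, a subunit of the replicative helicase, by -8.51 (-30.8 to 14.0). The 21 genes of Okazaki fragment synthesis and joining had 13 higher, 8 lower and a summed difference of 3.21 (-2.53 to 8.94). Rfc5, of the clamp loader, differed by -9.68 (-32.1 to 13.02) and Pole, the leading-strand polymerase, by 4.11 (-18.6 to 26.5). The 12 replication timing and cohesin factors differed by -1.43 (-9.09 to 6.22), and Timeless, of the fork protection complex, and Stag1, of cohesin, by -0.267 (-23.8 to 23.2) and 9.34 (-14.7 to 33.2).

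The share of reads over the targeted genes was not lower in naive KMT2C/D dKO. Kmt2d, which carries the conditional allele, was covered by 41 bins of 1 kb, of which 3 held no read in the naive control and 2 in naive KMT2C/D dKO, with means of 2.68 and 3.22 reads per bin. Its gene body held 110 and 132 reads, a ratio of the read share of 1.34 (1.04 to 1.75), while in EpiLCs this ratio was 0.839 (0.712 to 0.988), on the other side of 1. Its strand bias was 10.5 and 3.47 percentage points, with an interval of the difference of -29.3 to 15.5. Kmt2c, knocked out in both lines, had a strand bias of 1.24 and 5.38 and 2.18 and 1.97 reads per bin in tracks of unequal depth, a ratio of the read share of 1.016 (0.893 to 1.157). The deleted exons are not given in the sources used here, and these tracks do not check the labels.

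Few single windows changed direction clearly. At 500 kb the Crick share was higher in KMT2C/D dKO by at least 10 percentage points, with an interval that leaves out 0, in 11 windows (0.231% of those compared) and lower in 10 (0.21%). After division by the amplitude these counts were 8 and 2, and after removal of the T minus A part 9 and 5. The largest increase lay in a region without protein-coding genes, chr14:106500001-107000000 (mm10). It had 322 Crick of 744 reads in the control and 385 of 628 in KMT2C/D dKO. These are 43.3% and 61.3%, a difference of 18.0 percentage points (12.8 to 23.2). In the EpiLC tracks the same window had 56.1% and 57.1%, so the naive control was the one of the 4 tracks below 50%. The second largest held a cluster of Sult2a sulfotransferase genes (Sult2a4, Sult2a5 and Sult2a2; chr7:13500001-14000000) and went from 44.4% to 59.3%, by 14.9 (8.40 to 21.2), and from 50.2% to 56.4% in EpiLCs. Windows inside Sorcs1, a sorting receptor of neurons (chr19:50000001-50500000), and at the start of Cdh13, which encodes T-cadherin (chr8:118000001-118500000), followed with 12.3 (7.10 to 17.4) and 11.9 (7.21 to 16.4) percentage points. The window of Samd12 and Gm7489 (chr15:53500001-54000000) went from 50.6% to 62.2% and had 55.28% and 55.02% in EpiLCs.

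The largest decreases were smaller than the 3 largest increases. The window chr10:92500001-93000000, with Cfap54, a protein of cilia, and Nedd1, which recruits gamma-tubulin to spindles, went from 43.2% to 32.1%, by -11.1 percentage points (-16.0 to -6.06), and from 40.3% to 37.7% in EpiLCs. The window of the zinc finger genes Zfp160, Zfp677 and Zfp51 (chr17:21000001-21500000) went from 51.5% to 40% in naive cells and from 41.8% to 43.3% in EpiLCs. The gene-free window chr10:103500001-104000000 went from 62.0% to 50.5%, the window of Gm5624, Gm8257 and Gm8267 (chr14:44500001-45000000) from 46.3% to 34.7%, and that of Nlrp9a, Cyp2b23 and Cyp2b19 (chr7:26500001-27000000) from 53.5% to 42.9%. Clusters of near-identical genes such as these can share or lose reads in alignment. The called windows also held fewer reads, with a median of 1421 (higher) and 1218 (lower) over both tracks against 1699 over all windows.

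Of the 11 windows with a higher Crick share, 9 were also higher in EpiLC KMT2C/D dKO, with a median EpiLC difference of 2.75 percentage points against 11.3 in naive cells, and of the 10 lower windows 8 were lower, with medians of -1.83 and -10.5. Over all 500 kb windows 58.0% had the same sign in both states. The correlation of the Crick difference between naive cells and EpiLCs was 0.25 across the 4758 windows, and 0.48 with counting error taken off. It was 0.13 when the deviations in each KMT2C/D dKO track were first divided by its amplitude relative to the control.

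At 50 kb, 528 windows (1.12%) were higher and 562 (1.19%) lower by at least 20 percentage points. Of the higher windows 302 were also higher in EpiLCs, with a median of 1.05 percentage points, and of the lower 316 were lower, with a median of -0.803, while over all 50 kb windows of these signs 52.8% and 53.1% went the same way. The extreme windows rested on few reads. The largest increase, at Rex2 (chr4:147050001-147100000), was from 6 Crick of 22 reads to 27 of 37, the next, at Gm2042 (chr12:87950001-88000000), from 6 of 21 to 17 of 23, and the largest decrease, at the pheromone receptor genes Vmn2r51 and Vmn2r50 (chr7:10050001-10100000), from 9 of 13 to 3 of 16. At Zfp534 (chr4:147700001-147750000) it went from 14 of 25 to 1 of 11. The third in each direction held no protein-coding gene, with 4 of 15 and 9 of 13 reads at chr15:3050001-3100000 and 9 of 11 and 5 of 14 reads at chr12:23150001-23200000. At 5 Mb 1 window (0.202%) was higher by at least 3 percentage points, chr16:50000001-55000000 with Bbx, Alcam and Cblb, which went from 50.1% to 53.4% (difference 3.23, 1.57 to 4.88) and had 50.9% and 51.1% in EpiLCs. One window (0.202%) was lower, chr4:1-5000000 with Lyn, Tgs1 and Plag1, from 52.6% to 47.6% (-5.08, -7.76 to -2.39), where 1950 kb had sequence and EpiLCs had 50.9% and 50.3%. The higher call was lost after division by the amplitude and with shifted windows, and the lower call with a minimum of 4000 reads.

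Over whole autosomes the Crick share differed by -0.349 percentage points (-0.698 to -0.000750) on chromosome 17 to 0.410 (0.0592 to 0.761) on chromosome 16, and the other 17 intervals held 0. Neighbouring 50 kb windows had Crick differences that correlated at 0.13 over 46920 pairs, neighbouring 500 kb windows at -0.03 and neighbouring 5 Mb windows at -0.15.

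The distribution of reads differed most on chromosome 3. The variance of the log2 read share ratio was 1.17 times that of counting at 50 kb, 1.66 times at 500 kb and 3.37 times at 5 Mb over all autosomes. Chromosome 3 took 6.61% of the autosomal reads in the naive control and 6.27% in KMT2C/D dKO, a ratio of 0.949 (0.944 to 0.954). The other 18 autosomes lay between 0.997 on chromosome 15 and 1.01 on chromosome 14. The lower share extended over the whole chromosome. In 4 stretches of 40 Mb from its start to its end the ratio was 0.941 (0.930 to 0.952), 0.958 (0.947 to 0.969), 0.943 (0.934 to 0.953) and 0.955 (0.945 to 0.965), and 31 of its 32 windows of 5 Mb lay below 1, against 43.2% of the windows of the other autosomes. In EpiLCs chromosome 3 had a ratio of 0.956 (0.953 to 0.959), with 30 of 32 windows below 1. OK-seq reads do not tell fewer copies of a chromosome from fewer Okazaki fragments per copy. Fork direction on chromosome 3 followed the other autosomes, with a Crick share that differed by -0.0561 percentage points (-0.328 to 0.216) and the amplitude ratio given above.

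**Figure D5:**
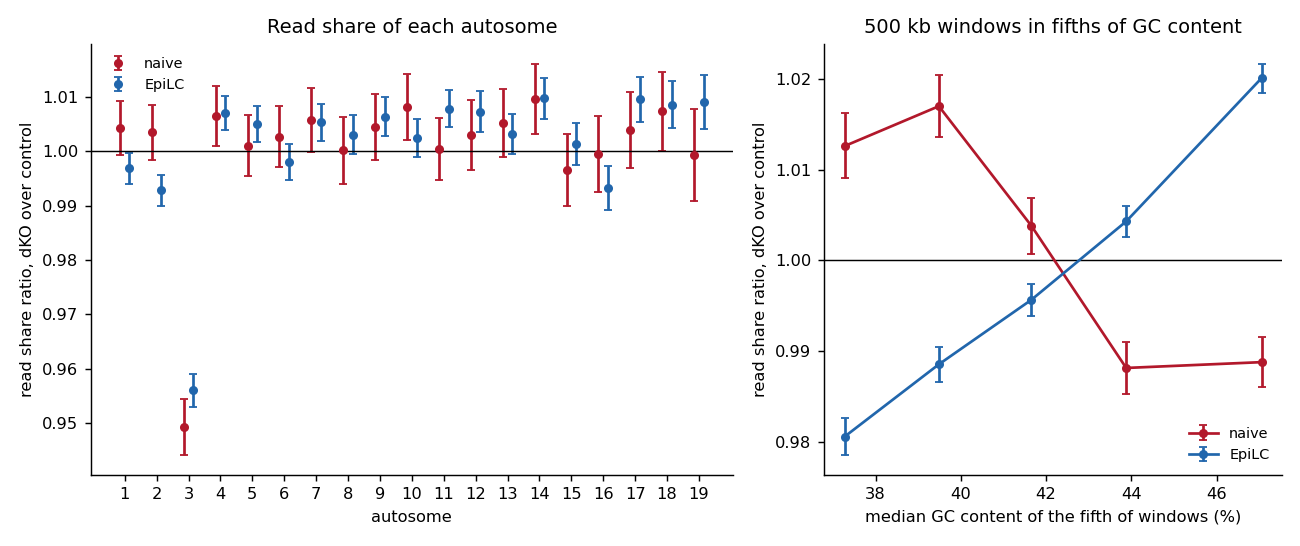
Left, ratio of the read share in dKO over control for each autosome; right, the same ratio for 500 kb windows in 5 groups by GC content (%, median of each group), in naive cells and EpiLCs. Bars are 95% counting intervals; chromosome 3 stands at 0.949 in naive cells and 0.956 in EpiLCs, and the naive and EpiLC lines cross in the right panel.

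Read share also followed base composition, in opposite directions in the states. In naive cells the most AT-rich group of 500 kb windows had a ratio of 1.013 (1.009 to 1.016) and the most GC-rich group 0.989 (0.986 to 0.991), whereas in EpiLCs these groups had 0.981 (0.979 to 0.983) and 1.0201 (1.0184 to 1.0217). Across the 4758 windows the log2 ratio correlated with GC content at -0.17 in naive cells and at 0.28 in EpiLCs. Windows without a TSS had a naive ratio of 1.014 (1.011 to 1.0175), windows with 1 to 3 TSSs 1.005 (1.002 to 1.007), windows with 4 to 9 TSSs 0.986 (0.984 to 0.989) and windows with 10 or more 0.997 (0.994 to 1.001), which gave no steady order with the number of TSSs. Genes of 300 kb and over took 1.0165 times (1.013 to 1.0205) their control share of reads and genes of 20 to 100 kb 0.991 times (0.988 to 0.995). Window counts with a line on GC content taken off are given in the last section. The part of base composition in the shares of these groups was not tested.

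At 500 kb the read share was at least 25% higher, with an interval that leaves out 1, in 2 windows (0.042%) and lower by the inverse of that factor in 3 (0.0631%), and at 5 Mb no window passed 1.1 times in either direction (0% and 0%), where the ratios ran from 0.912 to 1.08 and 31.7% of the windows had an interval that left out 1. The higher windows were chr8:43500001-44000000 with Adam34, Adam26a and Adam26b, from 558 to 658 reads, a ratio of 1.32 (1.18 to 1.48), and chr2:48500001-49000000 with Acvr2a, an activin receptor, Mbd5, and Orc4, a subunit of the origin recognition complex, from 765 to 859 reads, a ratio of 1.26 (1.14 to 1.39). Their EpiLC ratios were 1.06 and 0.972. Of the lower windows, chr6:78000001-78500000 with Reg2, Reg1 and Reg3a, secreted lectins of the pancreas and gut, went from 744 to 520 reads, a ratio of 0.783 (0.699 to 0.877), and had 0.769 in EpiLCs. The windows of the zinc finger genes Gm14410, Zfp970 and Gm14401 (chr2:177000001-177500000) and Zfp993, Zfp981 and Zfp989 (chr4:146500001-147000000) had 0.715 (0.573 to 0.891) and 0.794 (0.660 to 0.954) in naive cells, and 1.17 and 1.04 in EpiLCs. The Reg window was thus the one of these 5 that was also past its interval on the same side in EpiLCs.

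At 50 kb 11 windows (0.0233%) had at least 2 times the control read share and 11 (0.0233%) at most the inverse of that, with a median of 63.0 and 48.0 reads over both tracks against 170 over all windows. The largest increases were at chr7:38400001-38450000, from 12 to 25 reads, at Sp110 and G530012D18Rik (chr1:85550001-85600000), from 13 to 27, and at chr8:5750001-5800000, from 25 to 50. The largest decreases were at Gm8220 (chr14:44250001-44300000), from 29 to 11 reads, at chr3:93850001-93900000, from 33 to 13, and at Gm14325 (chr2:177800001-177850000), from 25 to 10. Of these 22 windows 4 of the higher and 6 of the lower went the same way in EpiLCs, against 51.1% and 51.0% of all windows of these signs. Across 500 kb windows the log2 ratio correlated between naive cells and EpiLCs at 0.14, and at 0.10 without chromosome 3.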

How the data were processed

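OK-seq was compared in 4 naive samples (2 control KO, 2 KMT2C/D dKO), with EpiLC tracks beside them. The authors deposited strand signal tracks in 1 kb bins on mm10, with the replicates of a condition summed; the submitters' processing notes name Trim Galore, FastQC, Bowtie2, Picard and the builds mm10 and hg19. The deposited signal, in reads per base, came in whole steps of 0.001 in all bins (deviating by at most 2.27e-13 reads), and was turned into reads per bin. Positions were read as bin ends, since bins of undetermined bases then held 0 reads, against 3139 when read as starts. The 130 bins with over 10 times the median of the bins with reads in any track were left out. Windows needed 10, 100 and 1000 reads at 50 kb, 500 kb and 5 Mb in every track, and TSSs 10 reads on each side.

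Intervals were Newcombe intervals from Wilson limits for Crick shares and exact conditional binomial intervals for read shares, at 95%. Named windows were the 5 largest called changes in each direction at 500 kb and 5 Mb and the 3 largest at 50 kb, with up to 3 genes each; named genes were the 2 members of each list with the most reads around the TSS, Kmt2c and Kmt2d. Members, lists and rules were chosen with earlier results of these data known, and the gene-body results, the window sizes from 10 kb to 2 Mb other than 50 and 500 kb, and the omission of chromosome 3 were chosen after seeing the data. One gene that the rule names is not reported here. Of 172 listed genes, 9 were not on autosomes. The computation used Python 3.11.15, numpy 2.4.6, pandas 2.3.3 and scipy 1.17.1, and was tested on simulated data. Alternatives changed the bins, window positions, thresholds, minimum reads, base composition, amplitude and centring.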

Additional observations from a re-analysis of the deposited data

Results flagged for a closer look

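Chromosome Y, which no comparison above uses, had a read share ratio of 1.085 in naive KMT2C/D dKO over the control (95% interval 1.03 to 1.14), on 3574 and 3460 reads, and 1.08 (1.05 to 1.11) in EpiLCs. It was singled out because the signal lies outside the autosomes. Chromosome X, also outside the autosomes, had a ratio of 1.006 (0.998 to 1.015) in naive cells and 0.967 (0.962 to 0.972) in EpiLCs.

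The following values lay on opposite sides of no change in naive cells and EpiLCs, and the difference between the states was not tested. The strand bias around TSSs, 25 kb on each side, differed by -0.1999 percentage points in naive cells and by 0.352 in EpiLCs, both as counted. After removal of the T minus A part the naive value was -0.0577 (-0.252 to 0.137), which does not hold its side of 0. The share of forks along transcription in gene bodies differed by -0.5689 percentage points in naive cells and by 0.385 in EpiLCs, where the interval held 0 after the same removal. The read share ratio of the most AT-rich 500 kb windows was 1.013 in naive cells and 0.981 in EpiLCs, and that of the most GC-rich windows was 0.9888 and 1.0201.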

How the results depend on the processing

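No paired analysis was possible because the deposited tracks sum the replicates of a condition. For the same reason no replicate could be left out and no replicate block could be fitted. Of 208 alternative values, 151 kept their direction and stayed within the interval or within 1.5 times the count, 55 moved further and 2 turned direction. At low depth single 50 kb windows rest on few reads, and intervals cover counting error only.

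The difference in TSS strand bias turned from -0.1999 to 0.03771 with 50 kb and 0.4089 with 100 kb on each side, and its interval held 0 after removal of the T minus A part (-0.05769) and over TSSs with no other within 50 kb (-0.1069). Dividing deviations in KMT2C/D dKO by its amplitude relative to the control changed it to -0.53, the gene-body difference to -0.8153, the fork direction contrast from 1.526 to 0.2001, the naive against EpiLC correlation of Crick differences from 0.2474 to 0.1292, lower 500 kb windows from 10 to 2 and higher 5 Mb windows from 1 to 0. Removal of the T minus A part gave amplitude ratios of 1.094 at 50 kb, 1.188 at 500 kb and 1.258 at 5 Mb, 1.197 without a TSS and 1.204 with 10 or more TSSs, a contrast of 1.864, a gene-body difference of -0.375 and 5 lower 500 kb windows. The contrast was 1.885 with classes at 40 and 60 percent and 2.253 with classes from EpiLC KMT2C/D dKO. Windows shifted by 0.5 of their size gave amplitude ratios of 1.15 without a TSS and 1.105 with 10 or more, 0 higher 5 Mb windows by Crick share and 6 lower 500 kb windows by read share.

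With thresholds 0.5 times as large, the Crick share was higher in 2011 windows of 50 kb, 277 of 500 kb and 20 of 5 Mb and lower in 1998, 310 and 17, and the read share was higher in 966, 196 and 22 and lower in 874, 172 and 35. With thresholds 1.5 times as large, the Crick share was higher in 40, 1 and 0 windows and lower in 33 of 50 kb and 0 of 500 kb, and the read share was higher in 0 of 50 kb and 0 of 500 kb and lower in 0 and 1. Minimum reads of 40, 400 and 4000 left 0 lower 5 Mb windows by Crick share, 2 higher and 1 lower 50 kb windows and 1 lower 500 kb window by read share. Adding chromosome X gave 26 higher and 19 lower 50 kb windows and 5 lower 500 kb windows by read share. Leaving no bins out gave 1 higher 5 Mb window by read share. Taking a line on GC content off gave 1 higher and 5 lower 500 kb windows and 1 lower 5 Mb window by read share, and a naive against EpiLC correlation of read share ratios of 0.2013 in place of 0.1431. Without chromosome 3 that correlation was 0.09917, and 0 autosomes had a read share lower by about 2% or more, the size set for autosomes, against 1 with it. The cause of these changes was not tested.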
